A study of Danio rerio with 30 samples.

Results

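The comparison described here sets zebrafish embryos injected with alpha-amanitin against wild-type embryos at 2 to 3 h post-fertilization (hpf), before most zygotic genes are transcribed. Of the 30 RNA-seq libraries in the series, 5 poly(A)-selected ones were chosen by treatment and collection time, 3 from alpha-amanitin embryos (2, 2.5 and 3 hpf) and 2 from wild-type embryos (2 and 3 hpf). The comparison asks which RNAs already differed at the start of the time courses from which maternal mRNA decay was followed. Alpha-amanitin is a mushroom toxin that blocks RNA polymerase II and, less strongly, polymerase III, and was injected at the single-cell stage at 200 ng/µl. The wild-type embryos carry the treatment label none, and no mock injection is named in the sources used here. Toxin, injection and the separate collection of the 2 library series therefore cannot be told apart in any difference given here. There was 1 library per group and hour, each made from pooled embryos, so that libraries of neighbouring hours stand in for replicates. The fit used below takes out a linear change with the hour that both groups share. The spread left, with 2 residual degrees of freedom, holds other developmental change and the error of making a library. It is moderated by the variance of other loci (6.45 prior degrees of freedom), and p-values measure this moderated spread only.

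In the zebrafish embryo, the first cell cycles run on RNA and protein loaded into the egg by the mother. Zygotic transcription starts with a small set of genes, among them the miR-430 microRNA cluster, and becomes general at the mid-blastula transition, after which many maternal mRNAs are cleared. Maternal mRNAs also change the length of their poly(A) tails over these hours, and a poly(A)-selected library reads an mRNA only as far as its tail is captured. RNAs without a tail, such as ribosomal, spliceosomal and signal recognition particle RNA and the mRNAs of the replication-dependent histones, reach such a library mainly as carry-over.

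Levels are given in TPM, a unit that corrects for transcript length and in which every library sums to the same total. Of 35117 loci in the tables, 14009 averaged 1 TPM or more across the compared libraries and were tested. Of these, 12776 were found in a reference table of gene names. The number of loci at 1 TPM or more was 13734, 14036 and 14316 in the alpha-amanitin libraries at 2, 2.5 and 3 hpf, against 13594 and 13994 in the wild-type libraries at 2 and 3 hpf. Sequencing depth is unknown, since TPM does not keep it. Across the tested loci, Spearman's rho was 0.970 between the alpha-amanitin and wild-type libraries at 2 hpf and 0.972 at 3 hpf, beside 0.964 between 2 and 3 hpf within either group. The groups thus resembled each other at a given hour about as closely as the 2 and 3 hpf libraries of a group did. Neighbouring alpha-amanitin libraries were closer, at 0.983 between 2 and 2.5 hpf and 0.982 between 2.5 and 3 hpf. Marker genes of other cells were near 0: the summed TPM of vitellogenin loci reached 0.05 in alpha-amanitin libraries and 0.08 in wild-type libraries, that of liver and gut markers 0.85 and 0.44, that of ovarian follicle cell markers 1.11 and 1.01, that of adult blood markers 2.37 and 2.45, and those of enveloping layer and yolk syncytial layer markers no more than 0.93 and 1.28. Skeletal muscle markers summed to between 9.78 and 13.78 TPM in alpha-amanitin libraries and to 5.29 and 9.82 TPM in wild-type libraries, and neither of the 2 tested members passed the test. Markers of maternal identity were abundant in all 5 libraries, at summed TPM of 5169 to 6472 with alpha-amanitin and 3675 to 6388 in wild type.

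Most tested loci of signal recognition particle RNA and of the replication-dependent histones, RNAs without a poly(A) tail, were lower in alpha-amanitin embryos. A single locus each of RNase MRP, U4 and 5.8S RNA was lower, with fitted log2 differences of -6.84, -5.42 and -3.64. Of 98 tested U1 loci, none passed the test as lower, though 19 had a negative difference. The mRNAs of cytoplasmic ribosomal proteins and of the nuclear-encoded respiratory chain were higher. Most other loci, including those of the factors that start zygotic transcription, did not pass the limma test. Between the middle 50% of loci, the log2 difference of alpha-amanitin over wild type ran from -0.13 to 0.44. Its median was 0.16, and each change below is to be read against that shift.

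In a limma fit of treatment and hour to log2(TPM + 0.1), 2181 loci were higher and 481 lower with alpha-amanitin at a Benjamini-Hochberg adjusted p under 0.05, which is 15.6% and 3.43% of the loci tested (19% in either direction). A log2 difference of at least 1 was reached by 294 of the higher and 244 of the lower loci. Without adjustment, 4990 loci had p under 0.05. The alpha-amanitin and wild-type libraries did not overlap at 30.1% of the tested loci. The split of the calls depended on scaling: median-of-ratios scaling, which brings the median difference to 0.03, gave 1346 higher and 1111 lower loci, and rescaling without structural RNA genes and 8 loci depleted by Ribo-Zero gave 1424 higher and 955 lower with a median of 0.03. The number of calls depended on the model and on each library. It was 1 higher and 0 lower without the hour, 5 and 15 without a trend of the variance on the mean, 535 and 169 without the alpha-amanitin library of 2 hpf, 1218 and 514 without that of 2.5 hpf, 3224 and 1910 without that of 3 hpf, 74 and 90 without the wild-type library of 2 hpf, and 912 and 903 without that of 3 hpf. Fold sizes and values per library are therefore given before each count.

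The RNA component of RNase MRP, an endonuclease that cuts precursor ribosomal RNA, had 0, 0.76 and 1.95 TPM in alpha-amanitin embryos at 2, 2.5 and 3 hpf, against 34.9 and 118 TPM in wild-type embryos at 2 and 3 hpf. The groups were far apart, with each alpha-amanitin library lower than both wild-type libraries (log2 difference -6.84 ± 0.53 SE, adjusted p = 0.000888). It passed the filter on low values only through wild type, so a fall was the only change that could be called. This RNA was already at 43.8 TPM in the wild-type library of 1 hpf. A U4 spliceosomal RNA locus (ENSDARG00000082899) had 4.16, 1.1 and 1.42 TPM with alpha-amanitin, against 65.9 and 109 TPM in wild type (log2 difference -5.42 ± 0.47 SE, adjusted p = 0.00138). The one 5.8S ribosomal RNA locus tested had 87.6, 176 and 112 TPM with alpha-amanitin, against 847 and 2633 TPM in wild type (log2 difference -3.64 ± 0.31 SE, adjusted p = 0.00137). U4 base-pairs with U6 in the assembling spliceosome, and 5.8S is a part of the large ribosomal subunit. The small nucleolar RNA SNORD21 was listed at 0, 9.34 and 0 TPM with alpha-amanitin, against 17.5 and 47.7 TPM in wild type (log2 difference -5.99 ± 1.72 SE, adjusted p = 0.0441). A pair of U2 loci with identical values was listed at 0 in all 3 alpha-amanitin libraries, against 3.15 and 24.89 TPM in wild type, and SNORA16 was listed at 0 in all 3, against 5.05 and 9.84 TPM.

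Signal recognition particle RNA, the RNA scaffold of the complex that brings ribosomes to the endoplasmic reticulum, is read at 81 loci that share sequence, so their sum is more certain than any of them alone. The sum was 175, 263 and 201 TPM in alpha-amanitin embryos at 2, 2.5 and 3 hpf, against 695 and 1987 TPM in wild-type embryos at 2 and 3 hpf. The alpha-amanitin sum was thus 0.253 of the wild-type sum at 2 hpf and 0.101 of it at 3 hpf. Of 54 loci tested, 49 were lower and none higher, beside 3.43% lower among all loci, and the median log2 difference was -2.79, beside 0.16 for all loci. Without the wild-type library of 2 hpf 15 loci were lower, and without that of 3 hpf 21 of 43 were. All 54 had a negative difference in the comparison of all 5 libraries. Loci of this RNA made up 6 of the 10 largest falls among loci with a mean of at least 10 TPM and no overlap between groups, with log2 differences from -3.39 to -3.02. These 6 reached that mean only through the wild-type libraries, so their place in the ranking is no separate evidence of a fall.

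**Figure D1:**
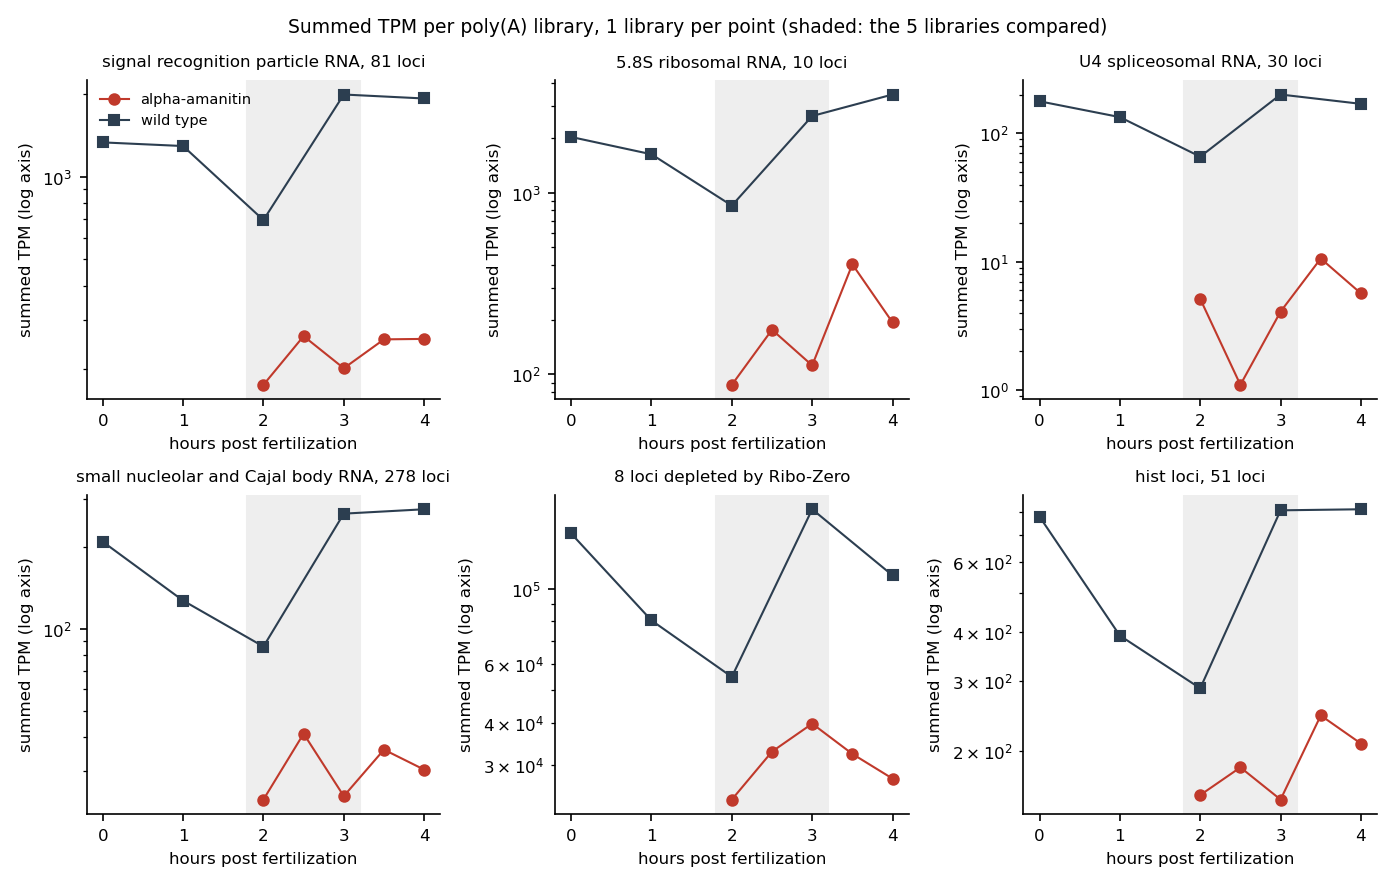
Summed TPM (vertical, log axis) against hours post-fertilization for 6 groups of loci, 1 library per point, red circles alpha-amanitin and dark squares wild type, with the 5 compared libraries in the shaded band. In each panel the alpha-amanitin points at 2 to 4 hpf lie below every wild-type point, those at 0 and 1 hpf included, and the wild-type library of 2 hpf is the lowest of its series.

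Small nucleolar and Cajal body RNAs, which guide the modification of ribosomal and spliceosomal RNA, summed to 23.6, 41.2 and 24.3 TPM with alpha-amanitin, against 86.1 and 265 TPM in wild type. Of 20 tested, 10 (50%) were lower, beside 3.43% of all loci. Another, snoZ30, was higher (8.07, 2.85 and 3.67 TPM with alpha-amanitin, listed at 0 in both wild-type libraries). U4 loci summed to 5.14, 1.1 and 4.09 TPM with alpha-amanitin, against 65.9 and 201 TPM in wild type, and 1 of 12 tested (8.33%) was lower. The other spliceosomal RNAs summed to 7.7, 3.29 and 2.59 TPM, against 27.3 and 63.6 TPM, with 4 of 6 tested (66.7%) lower and 1 (16.7%) higher. U1, which recognises the upstream splice site, did not follow. Its 382 loci summed to 827, 838 and 513 TPM with alpha-amanitin, against 511 and 615 TPM in wild type. Of the 98 tested, 13 (13.3%) were called higher, close to the 15.6% of all loci, and none lower. Median-of-ratios scaling gave 1 higher. The groups did not overlap at 21 U1 loci with alpha-amanitin higher and at 3 with it lower, beside 22.4% and 7.67% of all loci. The U1 locus ENSDARG00000100489 was at 12.6, 25.8 and 14.5 TPM with alpha-amanitin and listed at 0 in both wild-type libraries, though it had 3.98 TPM in wild type at 1 hpf and 9.85 TPM at 4 hpf. Reads of near-identical U1 copies can be shared out differently in each library, so single U1 loci are uncertain. Over all 195 structural RNA loci tested, 15 (7.69%) were higher and 66 (33.8%) lower, beside 15.6% and 3.43% of all loci, with a median log2 difference of -1.40. That median was 0.30 without the wild-type library of 3 hpf, with 31 loci lower, and 40 were lower without the wild-type library of 2 hpf. The filter took the mean of the compared libraries, so a locus near 0 in either group was tested only if higher in the other. RNase MRP, the U2 pair and SNORA16 entered through wild type in this way, and snoZ30 and the U1 locus named above through alpha-amanitin. The shares of tested structural RNA loci called lower or higher are thus partly set by the filter, whereas the sums hold every locus.

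A set of 8 loci had at least 100 TPM in wild-type poly(A) libraries at 0 and 1 hpf and no more than 1/100 of that in the Ribo-Zero libraries, which are made by removing ribosomal RNA. Their names, such as zgc:158463, BX537263.1 and CABZ01045617.1, carry no annotation of function in the tables used. They took 2.38, 3.29 and 3.98% of all TPM in alpha-amanitin embryos at 2, 2.5 and 3 hpf, against 5.48 and 17.2% in wild-type embryos at 2 and 3 hpf. Alpha-amanitin libraries at 3.5 and 4 hpf had 3.24 and 2.74%, and wild-type libraries had 14.5% at 0 hpf, 8.05% at 1 hpf and 10.9% at 4 hpf. The share moved widely between libraries of both series. Later alpha-amanitin libraries had 12% at 5.5 hpf, 2.04% at 7 hpf and 12.6% at 7.5 hpf. Wild-type libraries had 8.27% at 7 hpf and 3.56% at 8 hpf. All 8 were lower, beside 3.43% of all loci (median log2 difference -1.62), 6 of them with identical values in every library. zgc:158463 had 1002, 1616 and 1949 TPM with alpha-amanitin, against 3802 and 10900 TPM in wild type (log2 difference -2.13 ± 0.16 SE, adjusted p = 0.000888). A pair of further loci with very high values, AC024175.4 and AC024175.17, was not depleted by Ribo-Zero, and is given here because of its level. AC024175.4 had 3743, 5510 and 6592 TPM with alpha-amanitin, against 16544 and 29929 TPM in wild type (log2 difference -2.11 ± 0.15 SE, adjusted p = 0.00075). As TPM in a library sum to a fixed total, loci that take more of it lower the values of all others, and the median difference of all loci was 0.03 in place of 0.16 when structural RNA genes and these 8 loci were left out of the total.

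The mRNAs of the replication-dependent histones, which package DNA in each S phase and end in a stem-loop in place of a poly(A) tail, were low in poly(A) libraries and lower still with alpha-amanitin. The 51 hist loci summed to 155, 182 and 151 TPM in alpha-amanitin embryos at 2, 2.5 and 3 hpf, against 288 and 809 TPM in wild-type embryos at 2 and 3 hpf. Of 48 tested, 30 (62.5%) were lower, beside 3.43% of all loci, 1 was higher and 17 did not pass the test. The median log2 difference was -1.81. The count of lower loci was 10 without the wild-type library of 2 hpf and 9 of 45 without that of 3 hpf. hist1h2ba had 4.40, 5.15 and 3.18 TPM with alpha-amanitin, against 14.74 and 42.74 TPM in wild type (log2 difference -2.56 ± 0.37 SE, adjusted p = 0.00555). The HIST2H2AB locus ENSDARG00000075220, the most abundant of them, had 9.13, 11.8 and 9.04 TPM, against 17.1 and 60.9 TPM (log2 difference -1.69 ± 0.34 SE, adjusted p = 0.0147). Both were low in every alpha-amanitin library and highest in wild type at 3 hpf. hist2h2l alone was higher, with 6.81, 10.70 and 12.71 TPM with alpha-amanitin, against 4.53 and 9.11 TPM in wild type, and its groups overlapped (log2 difference 0.59, adjusted p = 0.0498).

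Histone variants with polyadenylated mRNAs did not follow. Among 10 loci of h2afv, h2afy, h3f3 and h1m, none passed the test in either direction, and the median log2 difference was 0.16, the same as that of all loci. h1m, the maternal linker histone, had 5625, 4656 and 3977 TPM with alpha-amanitin, against 5600 and 2797 TPM in wild type (log2 difference 0.25, adjusted p = 0.278). slbp, which encodes the protein that binds the histone stem-loop, was higher at 258, 237 and 189 TPM, against 192 and 131 TPM, with overlap between the groups (log2 difference 0.52 ± 0.12 SE, adjusted p = 0.0223). In the list of histone genes set up by symbol, which holds both kinds, 19 of 43 (44.2%) were lower and 3 (6.98%) higher, with a median of -1.60. Among all loci 3.43% were lower and 15.6% higher.

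In the opposite direction, the mRNAs of cytoplasmic ribosomal proteins, the structural proteins of the translating ribosome, were higher at most loci. Their list took 3.96, 3.31 and 2.38% of all TPM in alpha-amanitin embryos at 2, 2.5 and 3 hpf, against 1.89 and 1.21% in wild-type embryos at 2 and 3 hpf. The alpha-amanitin sum was 2.1-fold that of wild type at 2 hpf and 1.97-fold at 3 hpf, and both groups were lower at 3 than at 2 hpf. Of 89 loci tested, 79 were higher and none lower (median log2 difference 1.04), beside 15.6% higher among all loci, and 78 did not overlap between groups, beside 22.4% of all loci not overlapping with alpha-amanitin higher. Without the wild-type library of 2 hpf, 37 were higher. The list, set up by symbol, also caught 8 tested rps6k loci, which encode S6 kinases and not ribosomal proteins, and none of these passed the test (median -0.11). Leaving out rps6k and rpl7l1, which was decided after the values were seen, 79 of 80 were higher, and all 80 were above 0. The 80 still hold rps19bp1, named as a binding protein of a ribosomal protein, which was called higher with the lowest difference (0.62).

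rpl11, a protein of the large subunit, had 115, 96.8 and 70.17 TPM with alpha-amanitin, against 42.0 and 16.8 TPM in wild type (log2 difference 1.79 ± 0.16 SE, adjusted p = 0.00138). rps19, a protein of the small subunit, had 497, 396 and 262 TPM, against 151 and 85.1 TPM (log2 difference 1.71 ± 0.12 SE, adjusted p = 0.00075). rpl12, the most abundant of the list, had 2703, 1974 and 1479 TPM, against 1467 and 808 TPM (log2 difference 0.87 ± 0.12 SE, adjusted p = 0.00495). In each of these the lowest alpha-amanitin library was above the highest wild-type library. rpl36, rpl14, rpl30 and rps23 were also among the 10 largest rises at a mean of at least 10 TPM, with log2 differences of 1.74, 1.61, 1.59 and 1.58. Outside the list, and picked for the size of their rise, rps27.1 and rps27.2 had differences of 1.24 and 1.19, and eef1da, a subunit of translation elongation factor 1, one of 1.22. The others among the 10 were the U1 locus above, ndufs5, CR790368.1 (1.61) and CU467861.2 (1.58), the last pair without annotation of function here. Outside the ribosomal protein and respiratory chain lists, 231 loci were higher by a log2 difference of at least 1. Named after their values were seen, these included sec61g, a subunit of the protein-conducting channel of the endoplasmic reticulum, at 170, 137 and 130 TPM with alpha-amanitin, against 63.8 and 51.3 TPM in wild type (log2 difference 1.33), and ptmaa, a prothymosin gene (1.31).

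**Figure D2:**
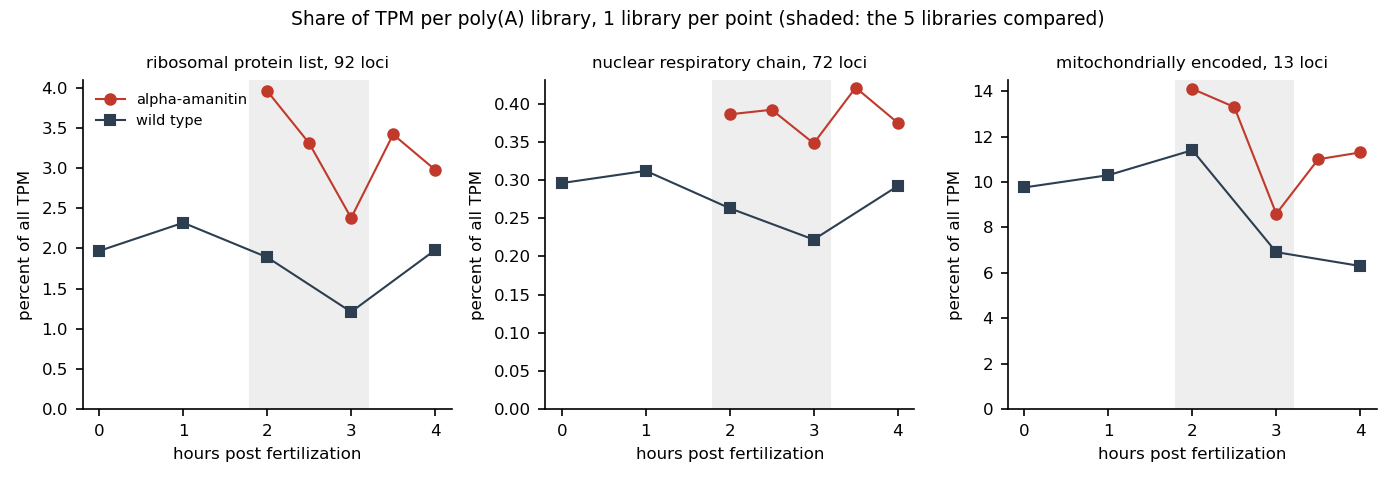
Percent of all TPM (vertical) against hours post-fertilization for the ribosomal protein list, the nuclear-encoded respiratory chain list and the 13 mitochondrially encoded genes, 1 library per point, red circles alpha-amanitin and dark squares wild type. At 2 and 3 hpf the alpha-amanitin library lies above the wild-type library in each panel, and for ribosomal proteins all alpha-amanitin points at 2 to 4 hpf lie above every wild-type point at 0 to 4 hpf.

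Nuclear genes of the respiratory chain, which encode the subunits that carry electrons and make ATP in mitochondria, were higher as well. Their list summed to 3859, 3919 and 3477 TPM with alpha-amanitin, against 2629 and 2225 TPM in wild type. Of 62 tested, 36 (58.1%) were higher, beside 15.6% of all loci, and none lower. All 62 had a positive difference, beside 9131 of all 14009 loci, and the median was 0.71, beside 0.16 for all loci. Without the wild-type library of 2 hpf only 2 were called, without the alpha-amanitin library of 2 hpf 21, and without the wild-type library of 3 hpf 24. ndufs5, a subunit of complex I, had 30.7, 42.2 and 56.8 TPM with alpha-amanitin, against 10.6 and 13.5 TPM in wild type (log2 difference 1.80 ± 0.16 SE, adjusted p = 0.00138). cox7b, a subunit of complex IV, had 8.23, 8.60 and 6.67 TPM, against 3.38 and 1.94 TPM (log2 difference 1.57 ± 0.22 SE, adjusted p = 0.00522). cycsb, a cytochrome c gene and the most abundant of the list, overlapped between groups at 663, 598 and 404 TPM, against 499 and 283 TPM (log2 difference 0.53 ± 0.13 SE, adjusted p = 0.0255).

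The 13 protein genes of the mitochondrial genome took 14.1, 13.3 and 8.6% of all TPM with alpha-amanitin, against 11.4 and 6.91% in wild type. The means were 12% ± 2.97 (SD, n = 3) and 9.13% ± 3.14 (SD, n = 2), and an exact two-sided permutation test gave p = 0.4, where 0.2 is the smallest p that 3 against 2 libraries allow. The test leaves out the hour, so its spread holds the fall in share from 2 to 3 hpf in both groups. At matched hours the alpha-amanitin sum was 1.24-fold that of wild type, at 2 hpf as at 3 hpf. At single genes 4 (30.8%) were higher, namely mt-nd3, mt-co3, mt-nd4 and mt-nd1, and mt-nd6 (7.69%) was lower, with a median of 0.45. Among all loci 15.6% were higher and 3.43% lower. mt-nd6, the one protein gene on the other strand, had 746, 797 and 524 TPM with alpha-amanitin, against 1125 and 1078 TPM in wild type, with no overlap (log2 difference -0.70 ± 0.16 SE, adjusted p = 0.0235). mt-nd3 had 1705, 1735 and 1072 TPM, against 1189 and 733 TPM, with overlap (log2 difference 0.65 ± 0.15 SE, adjusted p = 0.0224). None of the 4 higher calls was made without either of the 2 hpf libraries, without the alpha-amanitin library of 2.5 hpf, without the wild-type library of 3 hpf, or under median-of-ratios scaling, whereas 10 genes were higher without the alpha-amanitin library of 3 hpf. mt-nd6 was not called lower without either library of 2 hpf.

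**Figure D3:**
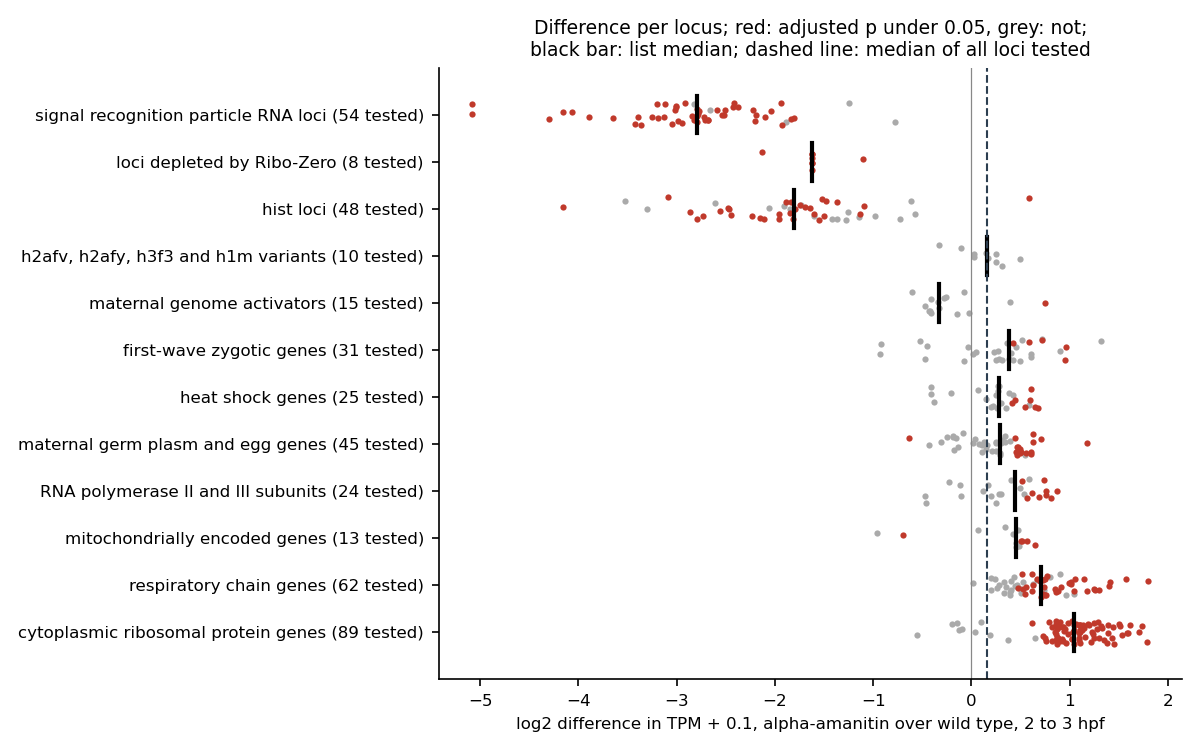
Log2 difference in TPM + 0.1 of alpha-amanitin over wild type (horizontal) for the tested loci of 12 lists (rows), 1 point per locus, red where the adjusted p is under 0.05 and grey where it is not, with the list median as a black bar and the median of all tested loci as a dashed line. Signal recognition particle RNA (median -2.79) and hist loci (-1.81) lie left of the dashed line, and respiratory chain (0.71) and ribosomal protein genes (1.04) lie right of it.

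Genes of the machinery that alpha-amanitin inhibits were measured too. Of 24 tested genes for subunits of RNA polymerases II and III, 9 (37.5%) were higher, beside 15.6% of all loci, and none lower (median 0.45), and 6 were higher and 1 lower with median-of-ratios scaling. The count of higher genes was 3 without the alpha-amanitin library of 2 hpf, 5 without that of 2.5 hpf, 2 without the wild-type library of 2 hpf and 4 without that of 3 hpf. Without the alpha-amanitin library of 3 hpf 13 were higher and 3 lower, and without the wild-type library of 3 hpf 1 was lower. polr2i, a small subunit of polymerase II, had 371, 332 and 260 TPM with alpha-amanitin, against 231 and 130 TPM in wild type (log2 difference 0.87 ± 0.13 SE, adjusted p = 0.00555). polr2a, the large subunit that the toxin binds, had 129, 129 and 159 TPM, against 203 and 180 TPM, and just missed the threshold (log2 difference -0.46 ± 0.14 SE, adjusted p = 0.0532). The highest of its alpha-amanitin libraries was below the lowest of its wild-type libraries. polr3a, its counterpart in polymerase III, had 4.46, 4.93 and 7.18 TPM, against 7.06 and 8.00 TPM (log2 difference -0.47, adjusted p = 0.147).

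The maternal factors that start zygotic transcription were present in both groups. Of 15 tested on a list set up by symbol, 1 (6.67%) was higher, beside 15.6% of all loci, and none lower. Yet 13 had a negative difference, and the median was -0.33, beside 0.16 for all loci. With median-of-ratios scaling 9 were called lower. Without the alpha-amanitin library of 3 hpf 10 were lower, without the wild-type library of 3 hpf 8 were, and without the wild-type library of 2 hpf none was and the median was -0.04. nanog, a homeodomain factor, had 1588, 1318 and 1549 TPM with alpha-amanitin, against 2395 and 1627 TPM in wild type (log2 difference -0.42 ± 0.16 SE, adjusted p = 0.101). pou5f3, a POU factor, had 454, 448 and 603 TPM, against 729 and 597 TPM (log2 difference -0.41 ± 0.17 SE, adjusted p = 0.121). sox19b, the maternal SoxB1 factor, had 317, 458 and 590 TPM, against 390 and 509 TPM (log2 difference -0.02, adjusted p = 0.95). In nanog and pou5f3 the 2 hpf libraries differed most and the 3 hpf libraries were close, and over the list the median difference was -0.50 at 2 hpf and 0.02 at 3 hpf. The gene that rose, mibp2, was on the list by its symbol only, and its place among these factors was not checked. It was at 8.83, 11.2 and 18.9 TPM, against 4.85 and 10.9 TPM, with overlap (log2 difference 0.75 ± 0.17 SE, adjusted p = 0.0203). None of the other 14 passed the test.

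Some maternal mRNAs fell with alpha-amanitin. Of the 481 lower loci (3.43% of those tested), 377 lay apart from structural RNA, hist loci and loci depleted by Ribo-Zero. They are all the remaining lower calls and were not chosen as maternal or as mRNAs. A fall of at least 1 on the log2 scale was reached by 140 of them. Without the alpha-amanitin library of 2 hpf, 155 of the 481 were still called lower, and with no filter on low values 88 were. The 12 described here were the largest falls among loci with a gene symbol whose ID is in the reference table of names, a mean of at least 10 TPM and no overlap, a group singled out after the values were seen. dock1, an activator of the GTPase Rac (locus ENSDARG00000099093), had 6.09, 4.68 and 25.0 TPM with alpha-amanitin, against 41.3 and 40.0 TPM in wild type (log2 difference -2.17 ± 0.50 SE, adjusted p = 0.0227). ppp4r1l, related to a regulatory subunit of protein phosphatase 4, had 8.13, 9.13 and 36.4 TPM, against 57.5 and 41.7 TPM (log2 difference -1.80 ± 0.49 SE, adjusted p = 0.0377). aff4, a scaffold of the super elongation complex, had 36.1, 37.1 and 90.1 TPM, against 101 and 128 TPM (log2 difference -1.20 ± 0.25 SE, adjusted p = 0.0169). In all of these the alpha-amanitin library of 3 hpf stood nearer to wild type than those of 2 and 2.5 hpf. The falls lay mainly at 2 hpf. Matched-hour differences at 2 and 3 hpf were -2.74 and -0.68 for dock1, -2.81 and -0.20 for ppp4r1l, and -1.48 and -0.50 for aff4. The alpha-amanitin library of 4 hpf was low again, at 6.47 TPM for dock1, 10.3 for ppp4r1l and 50.4 for aff4, against 40.2, 22.2 and 106 TPM in the wild-type library of 4 hpf.

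ctnnb2, a beta-catenin gene, had 204, 182 and 284 TPM with alpha-amanitin, against 598 and 365 TPM in wild type (log2 difference -1.09 ± 0.24 SE, adjusted p = 0.0198). lrrc8aa, a subunit of volume-regulated anion channels, had 56.3, 64.2 and 137 TPM, against 176 and 162 TPM (log2 difference -1.09 ± 0.27 SE, adjusted p = 0.0293). ago3b, an Argonaute protein of small-RNA silencing, had 16.7, 16.9 and 33.9 TPM, against 52.4 and 39.4 TPM (log2 difference -1.09 ± 0.29 SE, adjusted p = 0.034). The same order held, with the alpha-amanitin library of 3 hpf the highest of its group in each. Matched-hour differences at 2 and 3 hpf were -1.55 and -0.36 for ctnnb2, -1.64 and -0.24 for lrrc8aa, and -1.65 and -0.21 for ago3b. mfsd11, atp8b1, gnsb, cnnm4b, tbc1d9 and rgs7b completed the group with log2 differences of -1.43, -1.20, -1.18, -1.13, -1.12 and -1.09. Among loci whose IDs are not in that table, a further dock1 locus (ENSDARG00000109037), gfpt1, slc12a2 and clpxa fell by 2.14, 1.67, 1.49 and 1.14 on the log2 scale.

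**Figure D4:**
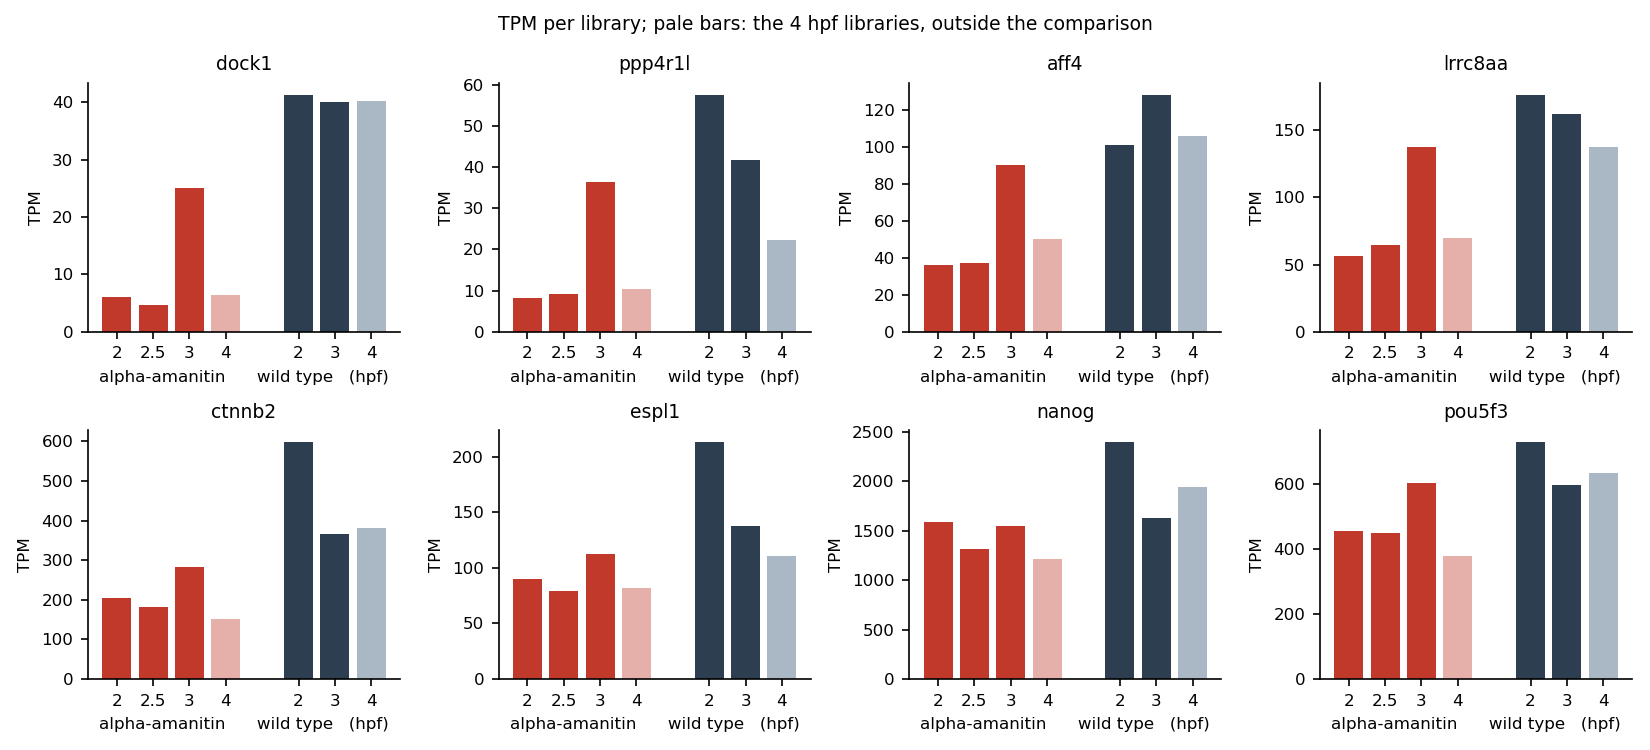
TPM per library (vertical, from 0) for 6 mRNAs that were lower with alpha-amanitin and for nanog and pou5f3, with the alpha-amanitin libraries in red on the left and the wild-type libraries in dark blue on the right, each by hour. Pale bars are the 4 hpf libraries, which took no part in the comparison. For the first 6 mRNAs every alpha-amanitin bar at 2 to 3 hpf is lower than both wild-type bars at 2 and 3 hpf.

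Other lists of maternal functions were mixed. Among 54 tested cyclin and cell cycle genes, 6 were higher and 2 lower (median 0.07), 11.1% and 3.7%, beside 15.6% and 3.43% of all loci. espl1, the separase that parts sister chromatids, had 89.99, 78.8 and 112 TPM with alpha-amanitin, against 213 and 138 TPM in wild type (log2 difference -0.89 ± 0.21 SE, adjusted p = 0.0236), and cdc6, which licenses replication origins, was the other lower gene (-0.79). cks1b and aurkb were the largest rises (0.68 and 0.61), while ccnb1, the most abundant, was at -0.09 (adjusted p = 0.721). Median-of-ratios scaling gave 3 higher and 3 lower genes and a median of -0.07. Of 62 tested genes for poly(A) tail and mRNA masking factors, 8 were higher and 2 lower (median 0.09), 12.9% and 3.23%, close to the 15.6% and 3.43% of all loci. btg4, an adaptor of the deadenylase in oocytes and eggs, had 304, 269 and 253 TPM with alpha-amanitin, against 199 and 158 TPM (log2 difference 0.63 ± 0.11 SE, adjusted p = 0.0114). pabpn1, a nuclear poly(A)-binding protein, differed by 0.62. xrn1, the exonuclease that degrades decapped mRNA, was lower at 57.8, 56.4 and 77.3 TPM, against 105 and 85.8 TPM (log2 difference -0.59 ± 0.17 SE, adjusted p = 0.0485), and celf1, an RNA-binding protein that promotes deadenylation, was the other lower gene (-0.64, adjusted p = 0.0195). The groups did not overlap in xrn1 or celf1, but the gap between them was smaller than the spread within wild type in both. Under median-of-ratios scaling the poly(A) and masking list had 2 higher and 8 lower genes.

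Of 45 tested germ plasm and egg genes, 15 (33.3%) were higher, beside 15.6% of all loci, and 1, celf1, was lower (median 0.29), and 7 were higher and 2 lower with median-of-ratios scaling. npm2b, a nucleoplasmin that loads histones in the egg, had 124, 128 and 121 TPM with alpha-amanitin, against 59.8 and 50.2 TPM in wild type (log2 difference 1.18 ± 0.12 SE, adjusted p = 0.00211). buc, the organizer of germ plasm, had 337, 582 and 825 TPM, against 262 and 559 TPM, with overlap (log2 difference 0.51 ± 0.12 SE, adjusted p = 0.0267). Of the 7 maternal identity markers 4 (57.1%) were higher (zar1, zp3b, npm2a and buc), and 1 with median-of-ratios scaling. The count of higher germ plasm and egg genes was 1 without either library of 2 hpf, 6 without the alpha-amanitin library of 2.5 hpf and 5 without the wild-type library of 3 hpf.

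Stress genes gave no uniform picture. Of 25 tested heat shock genes 7 (28%) were higher, beside 15.6% of all loci, and none lower (median 0.28), among them hspa5, a chaperone of the endoplasmic reticulum, at 334, 578 and 697 TPM with alpha-amanitin, against 216 and 476 TPM in wild type (log2 difference 0.68 ± 0.13 SE, adjusted p = 0.014). hspa8, the most abundant, had 3296, 3079 and 3057 TPM, against 2568 and 2259 TPM (log2 difference 0.38 ± 0.13 SE, adjusted p = 0.066), and the inducible hsp70l had 1.03, 0.75 and 1.02 TPM, against 1.54 and 1.03 TPM. No heat shock gene was higher without either library of 2 hpf, 2 were without the alpha-amanitin library of 2.5 hpf or the wild-type library of 3 hpf, and median-of-ratios scaling gave 5 higher and 1 lower. Among 27 tested p53 pathway genes bida (1.3), pmaip1 (0.92) and ccng1 (0.49) were higher and none was lower (median 0.20). That is 11.1% of the list, below the 15.6% of all loci. cdkn1a, a main p53 target, was below the filter at 0.71, 0.81 and 0.58 TPM with alpha-amanitin, against 0.51 and 0.30 TPM in wild type. Of 13 tested immediate early genes, mcl1a (0.88) and mcl1b (0.54) were higher and none lower (median 0.26). That is 15.4% of the list, close to the 15.6% of all loci, and egr1 was listed at 0 in all 5 libraries. Of 188 tested znf genes, 18 were higher and 2, znf185 and znf574, were lower (median 0.11). These shares, 9.57% and 1.06%, were below the 15.6% and 3.43% of all loci. Median-of-ratios scaling gave 10 higher and 12 lower znf genes. A znf971 locus (ENSDARG00000105834) had 2.77, 4.62 and 2.15 TPM with alpha-amanitin and was listed at 0 in both wild-type libraries. This locus passed the filter only through alpha-amanitin, so a rise was the only change that could be called. znf1179 had 12.8, 14.1 and 7.97 TPM, against 2.23 and 1.15 TPM (log2 difference 2.74 ± 0.24 SE, adjusted p = 0.00137).

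RNA of the miR-430 cluster and of gadd45bb, both transcribed early in the zygote, was found in the wild-type library of 3 hpf and in none of the other 4. The 55 miR-430 loci, whose microRNA clears many maternal mRNAs later on, were at 0 in all 3 alpha-amanitin libraries and in the wild-type library of 2 hpf. They were also at 0 with alpha-amanitin at 4 hpf, and summed to 34 TPM in wild type at 3 hpf and 220 TPM at 4 hpf. Copies of dre-mir-430a-4 were each at 4.29 TPM in wild type at 3 hpf and 36.51 TPM at 4 hpf, with identical values because the copies share reads. gadd45bb was at 0 in the 3 alpha-amanitin libraries, against 0 and 2.35 TPM in wild type at 2 and 3 hpf, with 72.82 TPM in wild type at 4 hpf. klf17, a Krüppel-like factor of the earliest wave, had 2.79, 1.68 and 2.16 TPM with alpha-amanitin, against 2.83 and 6.19 TPM in wild type (log2 difference -0.92, adjusted p = 0.112), with 356 TPM in wild type at 4 hpf. Its difference thus came from the wild-type library of 3 hpf alone.

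Of 109 first-wave zygotic loci, 78 were under the filter, and of the 31 tested none was lower and 5 (16.1%) were higher, a share close to the 15.6% of all loci: marcksl1b (0.95), a wnt8a locus (ENSDARG00000078507, 0.96), bambia (0.72), shisa2a (0.59) and cited4b (0.42). All 5 had maternal RNA, at 1.97 to 20.5 TPM in the wild-type library of 1 hpf. A set of 332 genes that rose by 4 hpf in the Ribo-Zero libraries (mean under 1 TPM at 0 to 2 hpf and at least 5 TPM at 4 hpf) summed to 87.3, 89.3 and 79.9 TPM with alpha-amanitin, against 66.2 and 124 TPM in wild type at 2 and 3 hpf. At 4 hpf the sum was 117 TPM with alpha-amanitin, against 11124 TPM in wild type. At 3 hpf, 14 of these genes were at 1 TPM or more in wild type and under 0.1 TPM with alpha-amanitin, and 4 the other way round. Those counts set 1 library against 1, and the same counts over all loci were not made. Of the 18 genes of the set that were tested, 1 was lower and none higher, beside 3.43% and 15.6% of all loci. Their median log2 difference was 0.13, beside 0.16 for all loci. By the more general measure of loci at least 5-fold above each of the other 4 libraries, the alpha-amanitin libraries of 2, 2.5 and 3 hpf had 59, 50 and 47, the wild-type library of 2 hpf had 38, and that of 3 hpf had 110, 58 of them structural RNA and 8 miR-430 loci.

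The difference between the groups was not the same size at both hours. The median matched-hour difference was 0.05 at 2 hpf and 0.27 at 3 hpf. No locus passed the test of a change in the difference with the hour at an adjusted p under 0.05 (0% of those tested), a fit with 1 residual degree of freedom, and 1399 loci (9.99%) had an unadjusted p under 0.05. Signal recognition particle RNA differed by a median of -2.14 at 2 hpf and -3.58 at 3 hpf, and hist loci by -1.07 and -2.55, as both were highest in wild type at 3 hpf. Ribosomal protein genes differed by 1.06 and 0.94 and respiratory chain genes by 0.61 and 0.71.

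**Figure D5:**
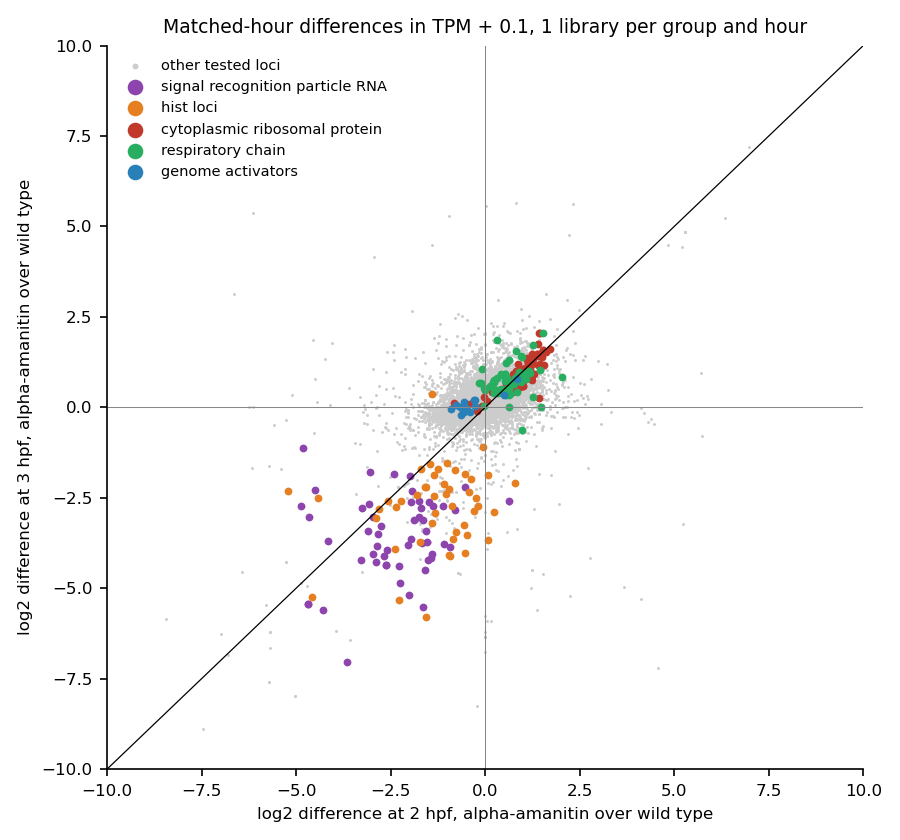
Log2 difference of alpha-amanitin over wild type at 3 hpf (vertical) against that at 2 hpf (horizontal), 1 point per tested locus, coloured for 5 lists, with the line of equality. Signal recognition particle RNA (purple) and hist loci (orange) lie mostly below 0 on both axes and below the line, ribosomal protein genes (red) lie near the line above 0 on both axes, and genome activators (blue) lie mostly left of 0 and near 0 at 3 hpf.

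Libraries outside the comparison held the same directions up to 4 hpf. In the alpha-amanitin library of 4 hpf over the wild-type library of 4 hpf, neither of which chose the loci, the median log2 difference was 0.45 for the 2181 loci higher at 2 to 3 hpf and -0.98 for the 481 lower ones, beside 0.15 for all loci. Of the higher loci 91.9% were above 0, and of the lower ones 91.9% were below 0, whereas 62.4% of all loci were above 0. At 5 hpf the sign of the median had turned for ribosomal protein genes, for respiratory chain genes and for the remaining lower loci. The cause of this turn was not tested. The 377 lower loci outside structural RNA and hist loci were at a median of -0.74 at 4 hpf and 0.56 at 5 hpf, beside 0.31 for all loci at 5 hpf. Ribosomal protein genes were at 0.60 at 4 hpf, -0.42 at 5 hpf and -1.37 at 6 hpf, and respiratory chain genes at 0.34, -0.48 and -1.11. All 2181 higher loci had medians of 0.10 at 5 hpf and 0.27 at 6 hpf, beside 0.31 and 0.89 for all loci. Lower hist loci stayed lower, at -2.14, -2.37 and -2.43 at 4, 5 and 6 hpf, as did the lower structural RNA and depleted loci at -2.85, -1.03 and -1.26.

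Wild-type libraries that took no part in the comparison showed how these RNAs are read. At 1 hpf, the sum over signal recognition particle loci in the poly(A) library was 0.00399 of that in the Ribo-Zero library, and that over hist loci 0.0141. The ratio was above 1 for U4 (2.23) and 5.8S RNA (16.1), and 545 for the 8 depleted loci, which were chosen by it. Per locus, the median log2 ratio was -1.31 for the loci called higher, -0.63 for the 377 other lower loci and 1.09 for ribosomal protein genes, beside -1.03 for all tested loci. From 1 to 4 hpf in wild-type poly(A) libraries, the higher loci gained a median of 1.75, the lower ones 0.45 and all loci 1.22 on the log2 scale. In Ribo-Zero libraries, which read RNA with and without a tail, the change from 2 to 4 hpf was -0.24 for the higher loci, 0.00 for the lower ones and -0.18 for all. The part that carry-over of RNA without a tail has in these differences was not tested.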

How the data were processed

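Embryos were sequenced in 30 libraries, 12 of alpha-amanitin poly(A), 9 of wild-type poly(A) and 9 of wild-type Ribo-Zero RNA. Per the labels, the authors used bcl2fastq 2.18, STAR 2.7.3a on danRer11 and RSEM, and deposited TPM per gene with no counts. Depth is thus unknown, no interval for counting error can be given, and a listed 0 may be a failed estimate. Groups and hours were taken from the labels. Loci averaging 1 TPM or more across the compared libraries were fitted as log2(TPM + 0.1) with limma 3.58.1 (R 4.3.3), with treatment and hour as terms, a variance trend and Benjamini-Hochberg adjustment, leaving 2 residual degrees of freedom. Fold changes understate those of low loci. The interaction fit added treatment by hour. On simulated data with 200 of 14009 loci changed, the fit recovered 0.5%, 67% and 92.5% of log2 changes of 0.5, 1 and 2, with 83.3%, 6.29% and 12.7% of calls false. Loci of repeated RNAs share reads, and 86 tested loci had values identical to another locus. Named loci were the 10 largest changes in each direction at a mean of at least 10 TPM with no overlap, and, from each list, every called member up to 4, or otherwise the 2 largest changes in each direction, and the most abundant. Loci named beyond this rule were chosen after their values were seen. The members and lists were chosen with earlier results of these data known, and those of structural RNAs, depleted loci, hist loci, histone variants and rps6k genes after the values were seen. Alternatives changed the pseudocount, filter, scaling, hour term, variance trend and libraries. Summaries used Python 3.11.15 with scipy 1.17.1. No reference sequence was used.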

Additional observations from a re-analysis of the deposited data

Results flagged for a closer look

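The 55 miR-430 loci, which fell under the filter on low values and so took no part in the test, summed to 0 TPM in the 3 alpha-amanitin libraries and 0 TPM in the wild-type library of 2 hpf, against 34 TPM in the wild-type library of 3 hpf. This drew attention as a signal in loci outside the comparison that was above the level in the other libraries.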

How the results depend on the processing

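As reported, 2181 loci were higher and 481 lower. Higher and lower counts were 750 and 99 with no filter, 1346 and 1111 with median-of-ratios scaling, 1 and 0 without the hour, 5 and 15 without a variance trend, and 1424 and 955 rescaled without structural RNA genes and depleted loci, an alternative chosen after seeing the data. With hour as a replicate block in the 2 and 3 hpf libraries they were 1218 and 514, which is also the fit without the alpha-amanitin library of 2.5 hpf. The labels give no replicate numbers, so hours alone pair the libraries. Leaving out 1 library gave 74 to 3224 higher and 90 to 1910 lower loci. The counts stayed within 1.5 times the main ones with pseudocounts of 0.01 and 1, a mean TPM of at least 5, rescaling without mitochondrially encoded genes, and 1 locus per set of identical profiles. Of the 481 lower and 2181 higher loci, 453 and 1346 remained under median-of-ratios scaling. The change of the difference with hour was called at 0 loci with a mean TPM of at least 1 and at 10 with a mean TPM of at least 5. Of 693 values of 44 named loci under the alternatives, none turned its direction and 148 lost the call. Loci were named mostly for large differences that passed the test, so a turn of direction was unlikely from the outset. Without 1 library the median of structural RNA genes ran from -1.94 to 0.30 and that of the 10 histone variants from -0.02 to 0.24, both turning without the wild-type library of 3 hpf. In simulation with 200 of 14009 loci changed, most changes of 0.5 on the log2 scale were missed. More loci, 2662, were called in the data, so the simulated rates need not hold for them. A locus that was not called may still differ. The causes of these dependences were not tested.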
